A study of Sus scrofa with 2 samples.

Results

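Transcript levels of 5 genes of fat cells and lipid droplets, CIDEC, PLIN1, PLIN4, ADIG and CFD, are described here in the back muscle of pigs kept at a moderate or a high temperature. They are 5 of the 27987 entries of the deposited table and were taken by their pig gene identifier and symbol, each of which stood on a single entry. The set was chosen by measured values of the same libraries: in an earlier reading of them, CIDEC and PLIN1 had the lowest heat to control ratios among a shorter list of adipocyte markers, and PLIN4 and ADIG the highest. TRARG1, which had a lower ratio than either CIDEC or PLIN1, is in the marker list used below and was put there with its value known. CFD was taken by its symbol. The ratios between libraries are therefore given as a description, with no test.

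The tissue was longissimus dorsi, a long back muscle that runs beside the spine, of crossbred castrated males bred from Duroc boars and Yorkshire-Landrace sows. The study took 16 such pigs, 79.0 ± 1.5 kg in weight and from 8 litters. The control arm of 8 pigs lived at 22 °C and the heat arm of 8 pigs at 30 °C, both for 21 days. Each arm gave 1 messenger RNA library, and the sources used here do not say whether it held the RNA of several pigs. Temperature, pigs and library thus cannot be told apart, and no value below has a replicate error. Levels are RPKM, the reads of a gene scaled to its length and to the library total. The library totals recovered from these values were 23608242 reads (control) and 22863584 reads (heat). The fibre genes ACTA1, MYL1 and TNNC2 stood at 17607 to 68749 RPKM in the control library, so the labelled tissue carried its defining transcripts.

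Fat is stored as triglyceride in lipid droplets, which a single layer of phospholipid and a coat of proteins surround. The perilipins form much of that coat, and PLIN1 of adipocytes holds back the lipases until hormones release them. CIDEC, also called FSP27, sits where droplets touch and lets lipid pass from the smaller to the larger, which gives adipocytes their single large droplet. Muscle holds droplets both inside fibres and in the adipocytes between them, the latter being the marbling of pork. In bulk muscle RNA, fewer adipocytes and less RNA per adipocyte cannot be told apart.

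The 5 genes covered a wide range of levels, and their order was the same in both libraries. CFD was highest, followed by PLIN4, PLIN1, CIDEC and ADIG. CFD alone took 70.1% of the summed RPKM of the 5 in the control muscle and 70.0% in the heat muscle. CIDEC took 4.32% and 2.06%, PLIN1 5.75% and 3.92%, PLIN4 19.3% and 23.4%, and ADIG 0.581% and 0.620%. The sum itself was 174.9 RPKM in the control muscle and 169.4 in the heat muscle. CIDEC and PLIN1 thus took a smaller share of the sum in the heat library and PLIN4 a larger one, while the shares of CFD and ADIG were close in both.

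**Figure D1:**
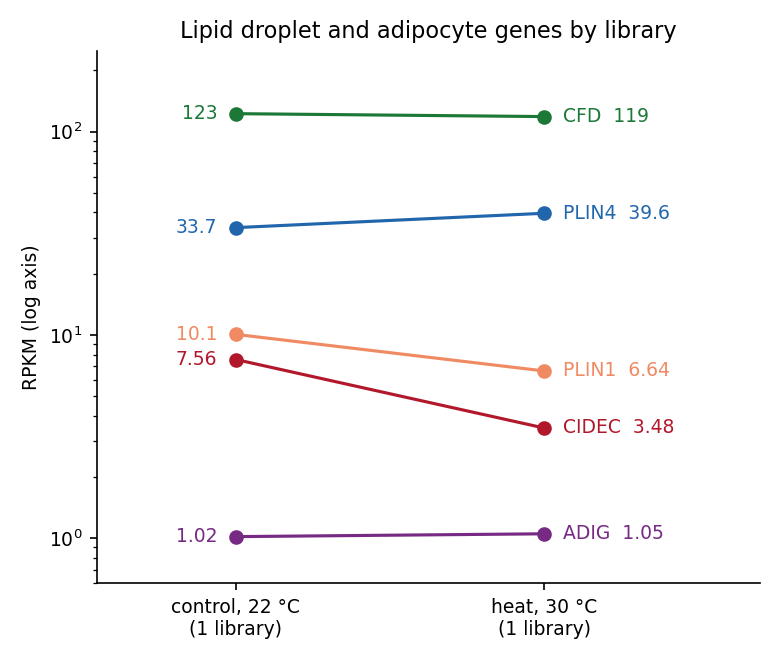
RPKM (log axis) of each gene in the control library (left) and the heat library (right), 1 library each, so no error is drawn. The lines of CIDEC (7.56 to 3.48) and PLIN1 (10.1 to 6.64) slope down, that of PLIN4 (33.7 to 39.6) slopes up, and those of CFD and ADIG are nearly flat.

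Among the droplet proteins, CIDEC (ENSSSCG00000011557) had the lowest heat to control ratio of the 5 genes. It stood at 7.56 RPKM in the control muscle and 3.48 RPKM in the heat muscle. The RPKM ratio of heat over control was 0.460. The ratio rests on at least 231 and 103 reads, the smallest whole reads that also give a whole gene length (1294 bp). With these reads the 95% counting interval of the ratio was 0.361 to 0.583. Such an interval (Clopper-Pearson) covers counting error only and says nothing of the spread between pigs. On the log2(RPKM + 1) scale, which pulls low genes toward 0, the ratio was -0.93. By level, CIDEC was placed 4818th of the 13191 entries with a mean RPKM of at least 1 in the control library, and 8027th in the heat library. CIDEB, a relative of CIDEC best known from liver, was at 0.0400 and 0.248 RPKM. These rest on at least 1 and 6 reads, with an interval of the ratio from 0.752 to 285 that holds 1 at these reads. The true reads may be a multiple of these, which would narrow the interval. Whether it would then still hold 1 was not tested. CIDEA, a further relative known from brown fat, was not analysed here.

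PLIN1 (ENSSSCG00000001844), the perilipin of adipocytes, was also lower in the heat library. It stood at 10.1 RPKM in the control muscle and 6.64 RPKM in the heat muscle. The RPKM ratio was 0.661, and the log2(RPKM + 1) ratio was -0.53. The smallest whole reads were 75 and 48 on a length of 316 bp, with a counting interval of 0.450 to 0.962 that ends just under 1. The true reads may be a multiple of these. With the next multiple, 150 and 96 reads on 632 bp, the interval was 0.506 to 0.859. PLIN1 went from place 3910 to place 5371 by level.

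PLIN4 (ENSSSCG00000013512), a perilipin of white adipocytes and muscle that coats small droplets, lay on the other side. It stood at 33.7 RPKM in the control muscle and 39.6 RPKM in the heat muscle, on at least 3495 and 3982 reads. The RPKM ratio was 1.18 with a counting interval of 1.12 to 1.23, and the log2(RPKM + 1) ratio was 0.23. Its place by level was 1447 in the control muscle and 1262 in the heat muscle. PLIN5 (ENSSSCG00000013513), the perilipin of tissues that burn fat, was at 1.12 and 0.695 RPKM. It rests on at least 25 and 15 reads, and its interval of 0.304 to 1.22 holds 1 at these reads. A multiple of them would give a narrower interval, and whether that would hold 1 was not tested. The mean of PLIN5 was under the minimum of 1 RPKM, so it enters no count below. PLIN2 and PLIN3, the perilipins of most cell types, were not analysed here.

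**Figure D2:**
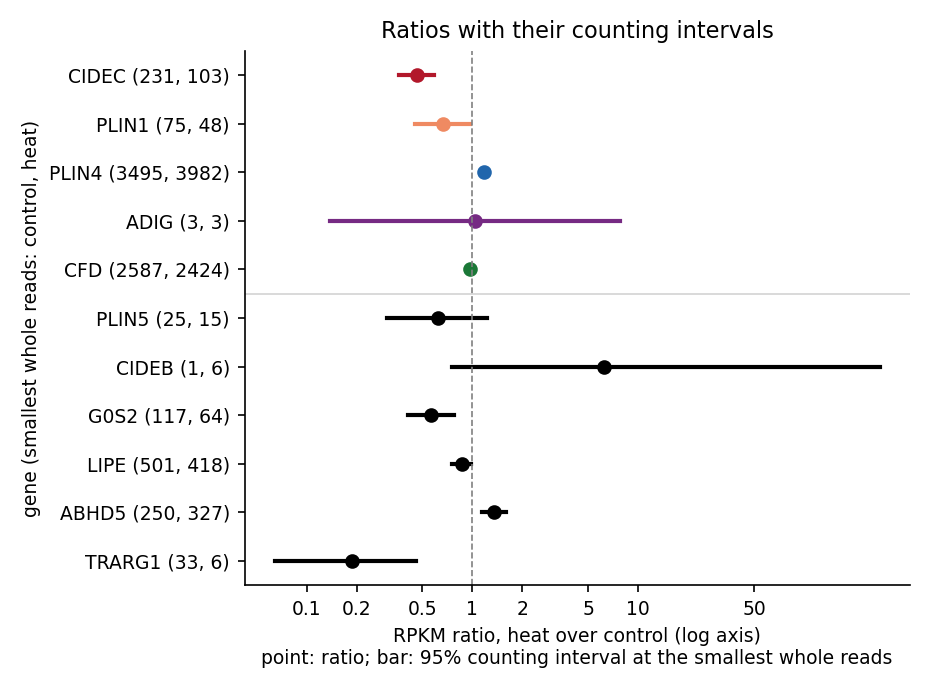
RPKM ratio of heat over control (points, log axis) with its 95% counting interval (bars) at the smallest whole reads given beside each gene, for the 5 genes (colour) and for related genes (black). The bars of CIDEC and PLIN1 lie below 1 and that of PLIN4 above it. The bar of ADIG spans 0.138 to 7.71, the bar of CFD is narrow and holds 1, and bars do not cover the spread between pigs.

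CFD and ADIG are markers of fat cells that are not perilipins or CIDE proteins. CFD (ENSSSCG00000013418), also called adipsin, is a serine protease that fat cells secrete and that starts the alternative pathway of complement. It stood at 123 RPKM in the control muscle and 119 RPKM in the heat muscle, on at least 2587 and 2424 reads. The RPKM ratio was 0.968 with an interval of 0.915 to 1.02 that holds 1 at these reads, which give a length of 894 bp. If the true reads were the third multiple, 7761 and 7272 on 2682 bp, the interval would be 0.937 to 0.999 and no longer hold 1. CFD was among the highest entries, at place 443 in the control muscle and 452 in the heat muscle of the 13191. ADIG (ENSSSCG00000007346), a small membrane protein of adipocytes also called adipogenin, stood at 1.02 and 1.05 RPKM. Its values are those of equal reads in both libraries, and the RPKM ratio of 1.03 is the ratio of the library totals. The smallest whole reads were 3 and 3 on 125 bp, with an interval of 0.138 to 7.71. Per kb of gene the level came to 24.0 reads in each library. With 24 and 24 reads, the count for a gene of 1000 bp, the interval would be 0.562 to 1.90, a range that includes the ratio of PLIN1.

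Levels were also set against each other within each library. Since CIDEC and PLIN1 were taken for low ratios and PLIN4 for a high one, the choice set the direction of these values. The exception is CIDEC against PLIN1, both taken for low ratios. The other values are a description with no interval. The level of CIDEC was 0.224 of that of PLIN4 in the control muscle and 0.0878 in the heat muscle. PLIN1 came to 0.298 of PLIN4 and then 0.168. CIDEC stood at 0.752 of PLIN1 in the control muscle and 0.524 in the heat muscle. The heat value over the control value was 0.697, with a 95% counting interval of 0.453 to 1.07 that holds 1. This interval used a normal approximation at the smallest whole reads. Against CFD, CIDEC was at 0.0617 and 0.0294, PLIN1 at 0.0820 and 0.0560, and PLIN4 at 0.275 and 0.334.

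All 5 genes passed the minimum mean of 1 RPKM, ADIG narrowly at 1.03. The median log2(RPKM + 1) ratio of the 5 was -0.05, with 3 below 0 and 2 above. Over all 13191 entries the median was 0.05, with 41.2% below 0 and 95% of entries between -0.57 and 0.66. CIDEC was the only one of the 5 at least 1.5-fold lower on this scale, a size that 2.37% of all entries reached. None of the 5 was at least 1.5-fold higher, which 3.44% of entries were, and none was 2-fold apart on this scale in either direction. The RPKM ratio of CIDEC without a pseudocount, 0.460, is past 2-fold, as is its log2 ratio of -1.10 at a pseudocount of 0.1. As entries these were 313 lower and 454 higher, or 382 and 335 after rescaling by the trimmed mean. Among the 6990 entries with a symbol, which all 5 genes have, they numbered only 41 lower and 87 higher. CIDEC and PLIN1 had counting intervals wholly below 1, against 9.94% of the 12701 entries with an interval. PLIN4 had one wholly above 1, against 20.0%. These ratios chose CIDEC, PLIN1, PLIN4 and ADIG, so nothing is read from the counts. Of the entries, 87 had a lower log2 ratio than CIDEC (0.660%), 382 a lower one than PLIN1 (2.90%), and 2803 a higher one than PLIN4 (21.2%). CFD and ADIG lay near the middle, with 32.9% and 45.0% of entries below them.

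**Figure D3:**
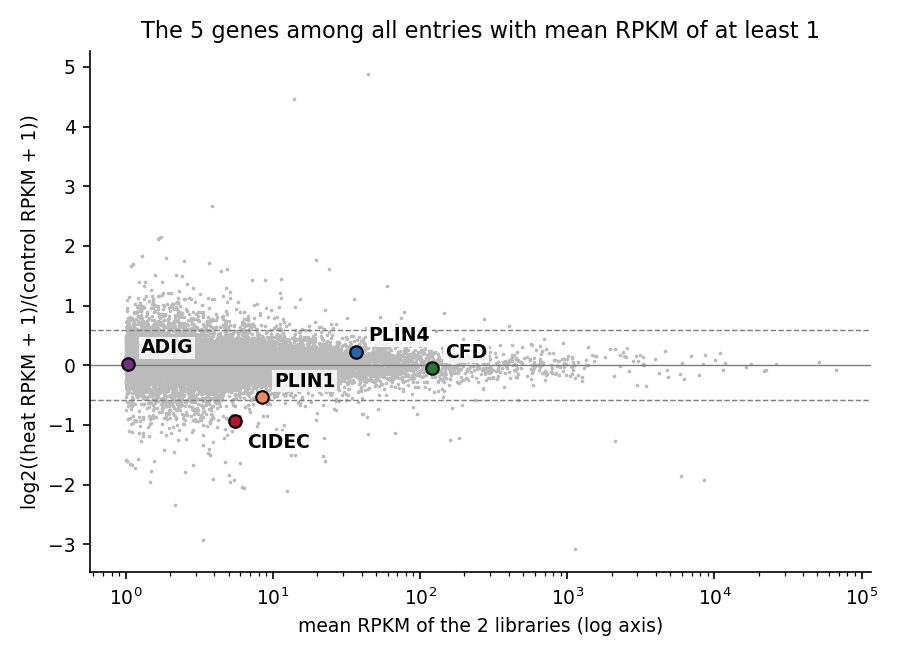
Mean RPKM of the 2 libraries (log axis) against the log2(RPKM + 1) ratio of heat over control for the 13191 entries with a mean RPKM of at least 1 (grey) and the 5 genes (colour). Dashed lines mark 1.5-fold. CIDEC lies below the lower line at -0.93, PLIN1 just inside it at -0.53, and PLIN4, ADIG and CFD lie within the body of the cloud.

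The side of the 1.5-fold line on which CIDEC and PLIN1 fall depends on the scale. With a pseudocount of 5 the log2 ratio of CIDEC was -0.57, just inside the line at 0.585. With a pseudocount of 0.1 the log2 ratio of PLIN1 was -0.59, and after rescaling by the trimmed mean it was -0.60, both just past it. ADIG, near 0 as deposited, was at -0.03 after centring on the median of all genes and -0.02 after the trimmed mean. Under each of the scalings CIDEC, PLIN1 and CFD were below 0 and PLIN4 above 0. CFD came to -0.004 when the 10 highest genes were left out. The other alternatives could not change a sign. A pseudocount keeps the direction of a ratio, and summing changes nothing for a symbol on a single entry. CIDEC, PLIN1 and PLIN4 were also chosen by their ratios, so nothing is read from their signs.

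Lipolysis, the breakdown of stored triglyceride that perilipins hold in check, was covered by 13 listed genes, of which 7 were matched and 3 passed the minimum. G0S2 (ENSSSCG00000015617), a small droplet protein that inhibits the main triglyceride lipase, was at 6.15 RPKM in the control muscle and 3.47 in the heat muscle. Its RPKM ratio was 0.565 (0.410 to 0.772) and its log2 ratio -0.68, which made it the only one of the 3 at least 1.5-fold lower. LIPE, hormone-sensitive lipase, was at 6.77 and 5.84 RPKM, a ratio of 0.862 (0.755 to 0.983). ABHD5, the lipase activator that PLIN1 binds, was at 2.68 and 3.62 RPKM, a ratio of 1.35 (1.14 to 1.60). The list median was -0.19 in log2. G0S2 and LIPE had intervals below 1 and ABHD5 one above 1, against 9.94% and 20.0% of all entries with an interval. The list was set with earlier results of these data known, so nothing is read from these counts and the median.

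The adipocyte marker list held 21 genes, the 5 among them. Of these, 13 were matched and 10 passed the minimum, with a median log2 ratio of -0.15, 8 below 0 and 2 above, PLIN4 and ADIG; 9 were below 0 after centring on the median of all genes or trimmed mean rescaling, and 7 when the 10 highest genes were left out of the scaling. Of all 13191 entries 41.2% were below 0. The 5 passing markers outside the set were all below 0, with a median of -0.16, except that PPARG stood at 0.012 in the scaling without the 10 highest genes. TRARG1 passed the minimum mean only through the control library, where it is high, so nothing is read from these counts and medians. TRARG1 (ENSSSCG00000017801), a protein of the vesicles that carry the insulin-dependent glucose transporter, had the lowest ratio of the list. It was at 2.21 RPKM in the control muscle and 0.415 in the heat muscle, on at least 33 and 6 reads, a ratio of 0.188 (0.0643 to 0.454). GPD1, which makes glycerol phosphate and is abundant in muscle fibres too, was at 879 and 799 RPKM. The adipocyte transcription factors were PPARG (1.89 and 1.86 RPKM) and CEBPA (4.02 and 3.49 RPKM). Their intervals of the ratio at the smallest whole reads, 0.617 to 1.56 and 0.643 to 1.17, hold 1. RETN, the hormone resistin, was listed at 0 in both libraries. The 12 matched markers other than GPD1 summed to 191.0 RPKM in the control muscle and 182.2 in the heat muscle, and most of that sum is CFD. ADIPOQ, LEP, FABP4 and LPL, further markers of fat cells, were not analysed here.

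**Figure D4:**
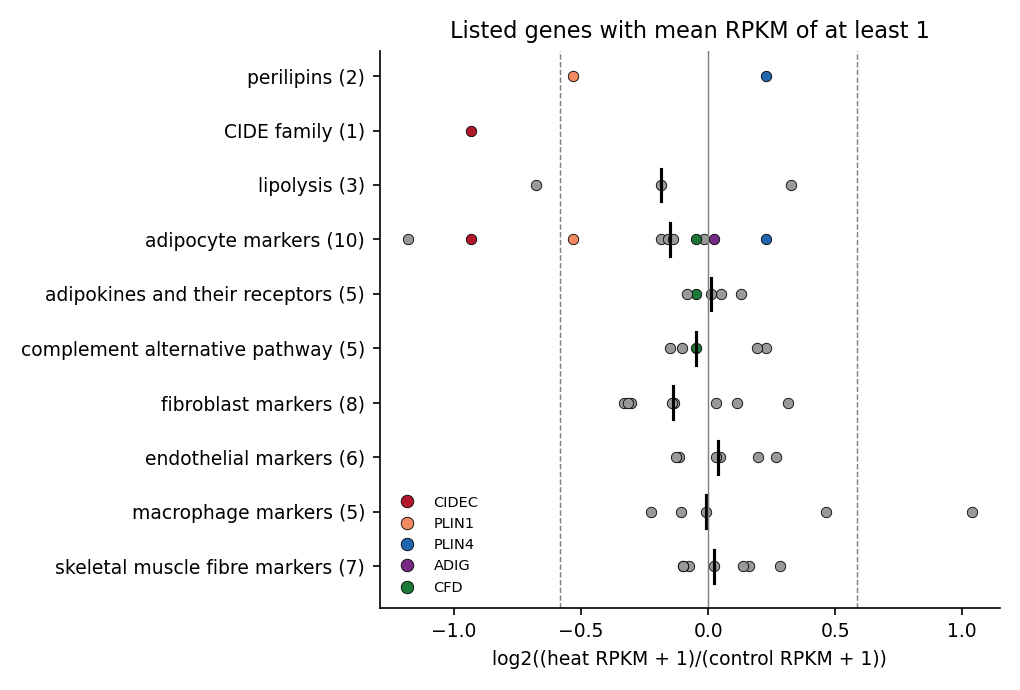
Log2(RPKM + 1) ratio of heat over control for listed genes whose mean reached 1 RPKM, 1 point per gene and the number of genes in brackets. Colour marks the 5 genes, black bars the median of lists of 3 or more, and dashed lines 1.5-fold. CIDEC, PLIN1 and TRARG1 lie apart on the low side of the adipocyte markers, PLIN4 on the high side and CFD near 0.

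Secreted fat cell products and complement gave the context of CFD. Of 12 adipokines and receptors, 5 passed the minimum, with a median log2 ratio of 0.01 and none 1.5-fold apart. They ran from the adiponectin receptor ADIPOR2 (29.3 and 27.5 RPKM, -0.08) and CFD (-0.05) to NAMPT, an NAD-making enzyme also found outside cells (34.3 and 35.6 RPKM, 0.05), and CDH13, a binding partner of adiponectin (23.3 and 25.6 RPKM, 0.13). Of 13 genes of the alternative complement pathway and its partners, 5 passed, with a median of -0.05, which is CFD itself. CFD was far above its pathway partners by level. C3, the component that the pathway cleaves, stood at 3.05 and 3.75 RPKM (log2 ratio 0.23, interval of the ratio 1.04 to 1.45). The stabiliser CFP was at 1.46 and 1.21 RPKM (-0.15), the protease MASP1 at 1.60 and 1.42 (-0.10) and the inhibitor CFI at 2.55 and 3.06 (0.19). Each of these had an interval that holds 1 at the smallest whole reads. CFB, the substrate that CFD cuts, was at only 0.285 and 0.316 RPKM, under the minimum.

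Markers of other cells of muscle stood as follows beside these genes. Of 11 fibroblast markers 8 passed, with a median log2 ratio of -0.14 and 5 below 0, against 41.2% of all entries below 0. The list was set with earlier results known, so nothing is read from this count and median. The 8 matched summed to 975 RPKM in the control muscle and 881 in the heat muscle. Most of both sums was COL3A1 (484 and 439 RPKM) and COL1A2 (203 and 164 RPKM). The fibroblast markers ran from PDGFRA, also a marker of fat cell progenitors (3.94 and 2.92 RPKM, -0.33), and PCOLCE (59.8 and 47.8, -0.32) to FBLN1 (12.3 and 13.4, 0.12) and DPP4 (1.81 and 2.49, 0.31). Endothelial markers had a median of 0.04 over 6 genes and summed to 143.7 and 160.6 RPKM, from TIE1 (-0.13) and KDR (-0.11) to PECAM1 (0.19) and TEK (0.27). Macrophage markers had a median of -0.01 over 5 genes and summed to 27.6 and 29.7 RPKM, with LYZ at 1.09 and 3.30 RPKM (1.04), CD68 at 3.61 and 5.36 (0.47), C1QA at -0.10 and MRC1 at -0.22. MARCO was under the minimum at 0.0829 and 0.0285 RPKM. MRC1 (1.29 and 0.959 RPKM) passed the minimum mean only through the control library, where it is higher. Nothing is therefore read from the macrophage median. Muscle fibre markers had a median of 0.02 over 7 genes and summed to 116396 and 112209 RPKM, from MYBPC2 and TNNC2 (both -0.10) to TNNT1 (0.16) and TNNC1 (0.28). The part of any of these in the values of CIDEC and PLIN1 was not tested.

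The genes whose 2 levels lay closest to each of the 5 were found by Euclidean distance on log2(RPKM + 1), among 6989 genes with a symbol. With 2 libraries this likeness joins only a level and a ratio. G0S2 was nearest to CIDEC at a distance of 0.26, followed by CLEC16A (6.61 and 4.42 RPKM) and DZIP1 (6.54 and 4.68 RPKM) at 0.32 and 0.39. The nearest gene lay farther from CIDEC than from any other of the 5. The nearest genes to PLIN1 were MGMT (0.05), MFSD3 (0.07) and C8orf82 (0.10). Those to PLIN4 were GKAP1 (0.025), PCYOX1 (0.028) and SSRP1 (0.035), those to CFD were PPP1R14C (0.010) and SMYD1 (0.018), and those to ADIG were SPNS2 (0.0060), IGSF1 (0.012) and WSCD1 (0.017).

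The labels do not say that the library kit kept strand, and the counting of reads from overlapping genes is not stated, so such reads may not have been told apart. In the RefSeq annotation of a later pig build, Sscrofa11.1, used here only for gene order, CFD lies inside the span of MED16, a subunit of the Mediator complex. MED16 was at 9.43 and 8.00 RPKM, far below CFD. The span of PLIN4 overlaps that of HDGFL2, at 19.8 and 20.03 RPKM (log2 ratio 0.01), and its neighbours are PLIN5 and UBXN6 (35.3 and 34.5 RPKM, -0.03). The spans of CIDEC and PLIN1 each overlap a long noncoding RNA with no value here. Next to CIDEC lie RPUSD3 (5.38 and 6.27 RPKM, 0.19) and JAGN1, which had no value here. Next to PLIN1 lie KIF7 (3.30 and 3.34 RPKM, 0.01) and PEX11A (2.41 and 2.26 RPKM, -0.06). CIDEC and PLIN1 were chosen for low ratios, so nothing is read from how they differ from their neighbours. RALGAPB, next to ADIG, was at 5.62 and 6.51 RPKM (0.18).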

How the data were processed

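The deposited table gives 1 RPKM value per entry and library, computed by the authors. Bowtie, TopHat 1.4.0, Cufflinks 1.3.0 and the build Sscrofa10.2 are named with no role per the submitters' processing notes, and the counting step and gene lengths are not stated in the sources used. A table of pig gene names gave 11374 of 27987 entries a symbol.

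Reads were recovered from the RPKM steps. Genes with equal reads in both libraries share 1 RPKM ratio, here 1.033 (heat over control). It was the most frequent ratio among entries with a mean under 0.3 RPKM. The smallest pair of whole reads, up to 5000, was found for 98.5% of the 19550 entries above 0 in both libraries. Library totals were those at which gene lengths came out whole. Pairs were raised by up to 30 times until the length was whole within 0.001 bp, which held for 97.5%. These limits were narrowed after first values had been seen, which left the reads of the 5 genes as they were. Such reads are minima, so Clopper-Pearson intervals are at their widest. Without molecular identifiers, PCR copies of 1 molecule count as separate reads.

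Ratios used a pseudocount of 1 and entries whose mean reached 1 RPKM. A design with 1 library per group allows no test. Genes named were the 5, all matched perilipin and CIDE genes, the 2 highest and 2 lowest of each other list, any gene past 1.5-fold in the lipolysis, marker, adipokine and complement lists, and 3 nearest genes each, of which 1 is not reported here. Any other gene named was picked with its values in view. Of 154 listed genes in 15 lists 93 were matched. The 5 genes and the lists were chosen with earlier results of these data known. Steps were tested on simulated data. Python 3.11.15, NumPy 2.4.6, pandas 2.3.3 and SciPy 1.17.1 were used.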

Additional observations from a re-analysis of the deposited data

How the results depend on the processing

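No paired analysis was possible because only 1 library was made per arm. Alternatives were planned pseudocounts, scalings, filters and the summing of entries of a symbol. With a pseudocount of 5 the log2 ratio of CIDEC was -0.57, and after trimmed mean rescaling those of PLIN4 and CFD were 0.15 and -0.13. These 3 values lay outside the counting interval of the gene. The others, for the same genes and for PLIN1 and ADIG, lay inside. The interval is of the RPKM ratio without a pseudocount, so it is not the same measure as a ratio with one. A pseudocount of 5 in particular pulls a gene at the level of CIDEC toward 0. The scalings shifted the overall median log2 ratio by -0.05, -0.07 and 0.04. The 313 entries at least 1.5-fold lower and 454 at least 1.5-fold higher numbered 565 and 934 at a pseudocount of 0.1 and 59 and 53 at 5. They were 482 and 785 without a filter and 69 and 97 when the mean had to reach 5 RPKM. Among the 6990 entries carrying a symbol they were 41 and 87. Whatever the fold, 1263 of the 12701 entries with a counting interval had it wholly below 1 and 2545 wholly above 1. The split at 1.5-fold also moved with scaling, to 377 and 375 after centring and 382 and 335 under the trimmed mean. It was 284 and 523 once the 10 highest genes were left out of the scaling. The median of adipocyte markers ran from -0.22 to -0.05, that of lipolysis from -0.26 to -0.08, that of complement from -0.13 to 0.00 and that of adipokines from -0.06 to 0.05. Apart from fewer or more genes entering under the filters, the cause was not tested. Depth limits ADIG most.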

Other observations

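Other lists of fat metabolism stood beside these genes as follows. Of 13 genes of fatty acid synthesis 8 passed the minimum, with 7 below 0 and a median log2 ratio of -0.27. Of all 13191 entries 41.2% were below 0. MLXIPL (1.36 and 0.846 RPKM) passed the minimum mean only through the control library, where it is higher. The list was also set with earlier results known, so nothing is read from this count and median. SCD, which desaturates fatty acids (34.5 and 10.7 RPKM, -1.61), and FASN, which makes them (16.0 and 6.998 RPKM, -1.09), were the lowest, ahead of CIDEC. FADS2, a further desaturase, was at -0.06 and ME1, a source of NADPH, at 0.30. Of 13 genes of triglyceride synthesis 7 passed, with 4 below 0 and a median of -0.10, against 41.2% of all entries below 0. From this count and median, too, nothing is read, for the same reason of a list set with results known. GPAT3, an acyltransferase of the first step in fat cells, stood at 3.53 and 2.04 RPKM, a ratio of 0.578 (0.461 to 0.721), and GPAT4 at 33.2 and 27.5 RPKM. The phosphatases LPIN1 (11.9 and 18.0 RPKM, 0.56) and LPIN3 (1.74 and 2.87 RPKM, 0.50) were highest.

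Genes of droplet formation, listed apart from the coat proteins, had a median log2 ratio of 0.03 over 9 genes and none was 1.5-fold apart. They ran from ACSL3, which activates fatty acids on new droplets (19.0 and 17.0 RPKM, -0.15), and CAV1 (49.4 and 48.8 RPKM, -0.02) to CAV2 (10.4 and 11.5 RPKM, 0.14) and CAVIN2, a coat protein of caveolae (6.63 and 8.69 RPKM, 0.34). FITM1 and BSCL2, which act where droplets leave the endoplasmic reticulum, were at 103 and 105 RPKM and at 20.2 and 20.6 RPKM. Fatty acid uptake genes had a median of 0.13 over 4 genes, from ACSL1 (-0.02) and SLC27A1 (0.07) to VLDLR (0.20) and SLC27A4 (0.27). Fat cell transcription factors had a median of 0.05 over 7 genes, from CEBPA (-0.16) and PPARG (-0.02) to STAT5A (0.29) and STAT5B (0.30).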
